A study of Mus musculus with 33 samples.

Results

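The 8 genes described here encode kinases that have been tied to sleep need: the salt-inducible kinases *Sik1*, *Sik2* and *Sik3*, the 4 genes of calcium/calmodulin-dependent protein kinase II (CaMKII), *Camk2a*, *Camk2b*, *Camk2d* and *Camk2g*, and *Mapk3*, which encodes the extracellular signal-regulated kinase ERK1. They were chosen by symbol from the 21565 genes of an RNA-seq table of mouse frontal cortex, and all 8 passed the filter on low values in every comparison. The table holds 33 libraries from adult male mice of C57BL/6J background, collected 6 hr after lights on. Wild-type (WT) mice slept ad libitum (control sleep, CS, n = 6), were kept awake for 6 hr (SD, 7 mice) or had recovery sleep for 2 hr after a shorter deprivation (RS, n = 7). *Mef2c* f/f mice, which carry loxP sites around an exon of the transcription factor gene *Mef2c* and serve as the control for the knockout, were taken in CS (n = 4) and SD (n = 3). Mef2c-cKO mice carry the same floxed allele and a Cre transgene under a *Camk2a* promoter (line T29-1), which acts mainly in excitatory neurons of the forebrain, and were also taken in CS (n = 3) and SD (n = 3). The promoter of one of the 8 genes therefore also drives the Cre of this line, and the study describes germline recombination in some of the cKO mice, so the loss of *Mef2c* need not be limited to those neurons.

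SIK3 came to notice in sleep research through a mouse mutant that sleeps more, and SIK1 and SIK2 carry the same regulatory site for protein kinase A. SIKs are switched on when LKB1 phosphorylates a threonine of their activation loop, are restrained by protein kinase A, and phosphorylate the CREB coactivators (CRTCs) and class IIa histone deacetylases, which in turn bind MEF2 proteins. CaMKII is a holoenzyme of α, β, γ and δ subunits that keeps a memory of calcium signals by phosphorylating a threonine of its own autoinhibitory segment, and the α and β subunits are the main forms of forebrain neurons. ERK1 is the last kinase of the Ras, Raf and MEK cascade. These proteins are regulated mostly by phosphorylation, and the values below are transcript levels, which do not measure kinase activity.

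Read counts per gene can be split between close relatives, so the stretch around the regulatory threonine is shown here for 3 genes of each family with the threonine codon in capitals. The sequences are from the GENCODE M21 transcripts of GRCm38 (mm10), read in the sense of the gene. In *Sik1* the stretch lies in exon 6 (chr17:31850989-31851051, minus strand), in *Sik2* in exon 5 (chr9:50917576-50917638, minus strand) and in *Sik3* in exon 5 (chr9:46177886-46177948, plus strand).
Sik1: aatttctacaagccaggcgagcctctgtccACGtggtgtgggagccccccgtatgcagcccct
Sik2: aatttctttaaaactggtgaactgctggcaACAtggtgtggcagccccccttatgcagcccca
Sik3: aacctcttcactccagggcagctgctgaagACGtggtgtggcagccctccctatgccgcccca
In *Camk2b* the stretch lies in exon 11 (chr11:5988967-5989029, minus strand), in *Camk2d* in exon 11 (chr3:126797711-126797773, plus strand) and in *Camk2g* in exon 11 (chr14:20760409-20760471, minus strand).
Camk2b: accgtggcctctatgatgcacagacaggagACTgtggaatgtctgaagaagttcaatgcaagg
Camk2d: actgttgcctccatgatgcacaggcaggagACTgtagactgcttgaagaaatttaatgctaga
Camk2g: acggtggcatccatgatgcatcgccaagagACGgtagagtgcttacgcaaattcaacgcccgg
Of these 63 bases, *Sik2* and *Sik3* shared 46 (73.0%), *Sik1* and *Sik2* 48 (76.2%), *Camk2b* and *Camk2d* 51 (81.0%) and *Camk2b* and *Camk2g* 43 (68.3%). Over whole transcripts, the longest identical run between family members was 19 bases among the SIK genes (*Sik2* and *Sik3*) and 32 bases among the CaMKII genes (*Camk2a* and *Camk2b*). Of the 8 genes, *Sik2* overlapped another listed gene in its exons, sharing 1429 bases (15.0% of its exon bases) with *Ppp2r1b* on the opposite strand. The reads were strand-specific, but whether the counting used strand is not given in the sources used here.

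Library totals recovered from the table went from 18935045 to 249046089 reads, and the counts behind the 8 genes went from 73 reads (*Sik1*, a *Mef2c* f/f CS library) to 159914 reads (*Camk2a*, a WT CS library). Values below are CPM rescaled by a median-of-ratios factor per library. The factors were 0.716 to 0.911 in WT CS and 0.978 to 1.08 in WT SD, so these groups differ in their library composition as well. All markers of excitatory and inhibitory neurons, glia, vessels and blood were above 0 in all libraries. In bulk tissue, fewer cells of a type and less RNA per cell cannot be told apart. One library stood apart: Mef2c-cKO CS replicate 8 had a summed level of 6 astrocyte markers of 2767, against 1098 and 1101 in the other cKO CS libraries, and of 6 microglia markers of 436, against 163 and 195. The *Mef2c* count per gene includes exons outside the deleted one and so checks nothing about the deletion. It was 1147 ± 67.3 (SD, n = 4) in *Mef2c* f/f CS and 1431 ± 415 (n = 3) in cKO CS.

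By group mean, *Camk2a* was the most abundant CaMKII transcript per kilobase and *Sik3* the most abundant SIK transcript in every group. Per kilobase, *Camk2b* was above *Camk2a* in some libraries: the lowest log2 ratio of *Camk2a* to *Camk2b* was -0.27 in WT CS, -0.12 in WT SD, -0.15 in WT RS and -0.03 in cKO SD. That order rests on the transcript lengths used, 4970 bases for *Camk2a* and 4023 for *Camk2b*. In rescaled CPM, without division by length, *Camk2a* was above *Camk2b* in every library. Per kilobase of the longest coding transcript, *Camk2a* made up 38.6% ± 4.4 (SD, n = 6) of the summed CaMKII level in WT CS, *Camk2b* 33.4% ± 3.6, *Camk2g* 17.5% ± 2.0 and *Camk2d* 10.5% ± 3.0. In *Mef2c* f/f mice *Camk2a* took a larger share, 48.3% ± 1.2 (n = 4) in CS and 51.0% ± 1.5 (n = 3) in SD, and *Camk2b* a smaller one, 30.3% ± 0.35 and 28.2% ± 0.82. In cKO mice *Camk2a* made up 42.5% ± 1.3 (n = 3) in CS and 46.2% ± 5.5 (n = 3) in SD, and *Camk2b* 35.7% ± 2.0 and 34.5% ± 5.4. Between WT and the other mice, genotype and the preparation of the table cannot be told apart. Among the SIK genes in WT CS, *Sik3* made up 58.7% ± 4.1, *Sik2* 37.4% ± 4.6 and *Sik1* 3.9% ± 0.58. The share of *Sik1* was 6.5% ± 1.3 (n = 7) in WT SD, 5.2% ± 1.0 (n = 7) in WT RS, 2.9% ± 1.0 (n = 4) in *Mef2c* f/f CS and 7.7% ± 1.9 (n = 3) in cKO SD. These shares are descriptions and were not tested.

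**Figure D1:**
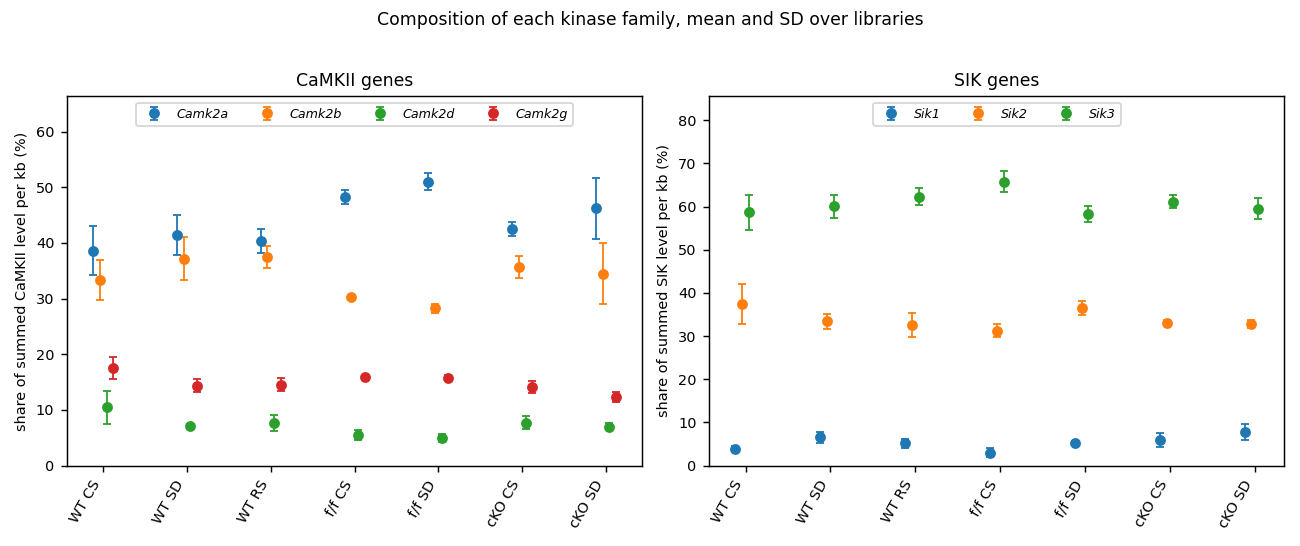
Share of each gene (y axis, percent) in the summed level per kilobase of its kinase family, in the 7 groups (x axis). Points are means and bars SDs over libraries. *Camk2a* and *Sik3* hold the largest mean share in every group, and the group mean of *Sik1* is highest in cKO SD, at 7.7%.

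**Figure D2:**
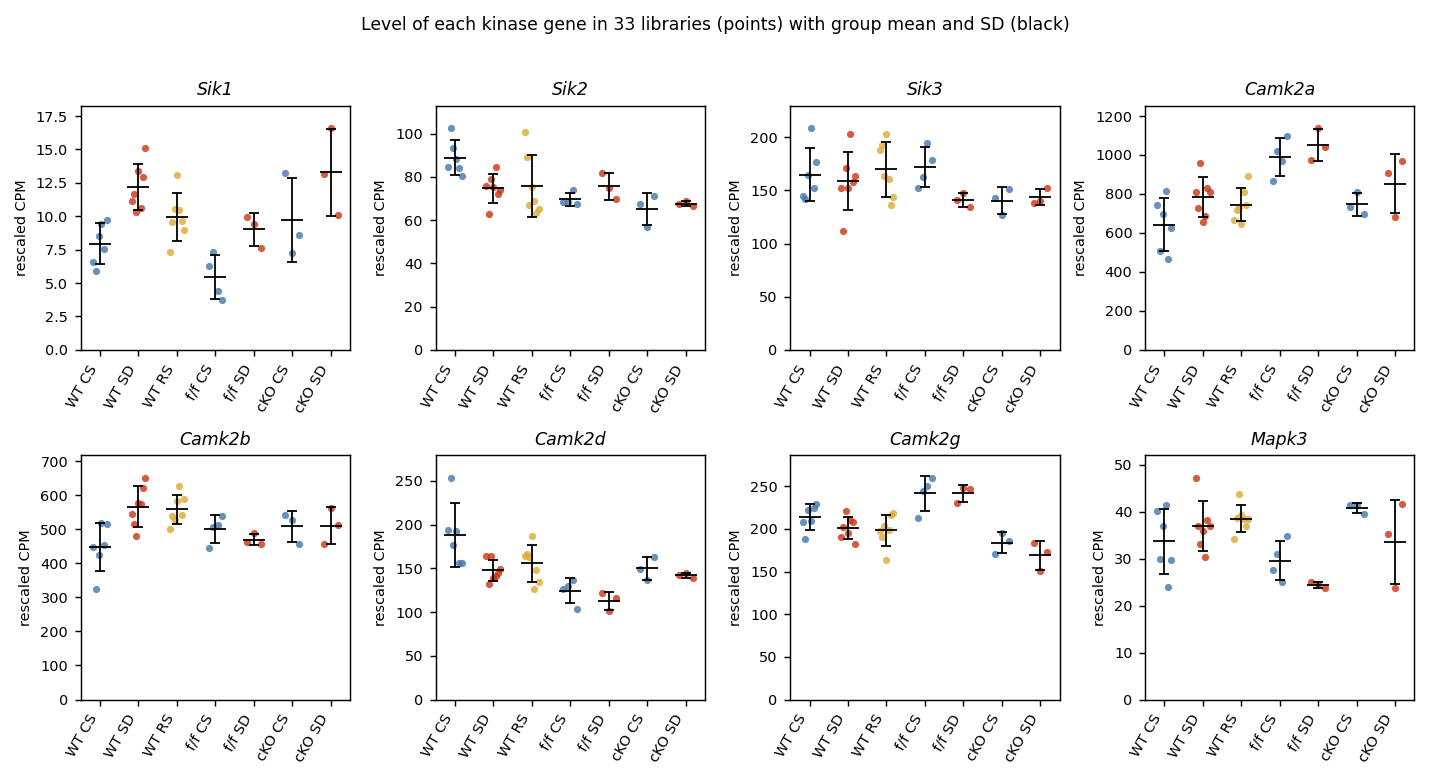
Rescaled CPM (y axes, from 0) of the 8 genes in each of the 33 libraries (points), by group (x axes), with group mean and SD in black. WT SD lies above WT CS for *Sik1* with no overlap, and the cKO libraries lie below the *Mef2c* f/f libraries of the same sleep condition for *Camk2g*.

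To ask how sleep loss changes the transcripts of these kinases, WT SD was compared with WT CS. *Sik1* and *Camk2b* rose, *Camk2d* fell, and the other 5 genes did not pass the test (limma, with a Benjamini-Hochberg adjusted p up to 0.05 and a log2 change of 0.3 or more in size). In this comparison 45.1% of all 12913 genes tested were called, so 3 of 8 is a share no larger than the background.

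*Sik1*, which encodes the SIK whose own transcription is induced by cAMP signalling, had 5.90 to 9.74 CPM (median 8.03) in WT CS and 10.3 to 15.1 (median 11.7) in WT SD. The lowest SD library was above the highest CS library, which was the case, in either direction, for 15.1% of all genes tested. The mean was 53.0% higher in SD, with a log2 fold change of 0.59 (SE 0.13, adjusted p = 0.00356). *Sik2* had 80.3 to 103 CPM (median 86.4) in CS and 62.7 to 84.5 (median 75.1) in SD, and the groups overlapped. Its log2 fold change of -0.25 (SE 0.08, adjusted p = 0.0219) was under the fold threshold, and how reads in the bases shared with *Ppp2r1b* were counted is not known. *Sik3* spread widely in both groups, from 142 to 209 CPM in CS and from 112 to 203 in SD, with a log2 fold change of -0.06 (SE 0.12, adjusted p = 0.699).

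The CaMKII genes moved in different directions. *Camk2b*, the gene of the β subunit, which binds actin, had 326 to 518 CPM (median 449) in CS and 479 to 651 (median 575) in SD. The groups overlapped in part, and the log2 fold change was 0.35 (SE 0.11, adjusted p = 0.0192). *Camk2a*, the gene of the α subunit of forebrain excitatory neurons, had 465 to 815 CPM (median 662) in CS and 655 to 958 (median 810) in SD. Its log2 fold change of 0.30 (SE 0.14) was nearly as large, with an adjusted p of 0.0713, and depended on the processing. It was called in 3 of 13 processing settings, which spanned 0.17 to 0.70, and in 1 of 13 fits with a library left out (0.22 to 0.38). The settings were the limma fit over all 7 groups, at 0.30 (adjusted p = 0.0243), CPM as deposited, at 0.58 (adjusted p = 0.00554), and quantile normalization, at 0.70 (adjusted p = 0.00266). The fit with a library left out was that without WT CS replicate 4, at 0.38 (adjusted p = 0.0311). *Camk2d*, the gene of the δ subunit, had 156 to 254 CPM (median 185) in CS and 132 to 164 (median 145) in SD, with a log2 fold change of -0.33 (SE 0.11, adjusted p = 0.0213). *Camk2g*, the gene of the γ subunit, which carries calmodulin to the nucleus in excitatory neurons, differed by -0.09 (SE 0.07, adjusted p = 0.308). *Mapk3* had 23.9 to 41.5 CPM in CS and 30.4 to 47.3 in SD, a log2 fold change of 0.15 (SE 0.13, adjusted p = 0.354).

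The calls on *Camk2b* and *Camk2d* depended on the processing, and that on *Sik1* less so. *Sik1* was called in 11 of the 12 settings that tested it, the main one included, with log2 fold changes of 0.36 to 0.85. Its call was lost in limma with a block on the replicate number, at 0.50 (adjusted p = 0.0564). Log2 fold changes of all genes rose with the GC content of the transcript (Spearman rho 0.72 over 12439 genes, which do not count as independent replicates), and *Camk2d* has the lowest GC content of the 8 genes (43.9%, against 49.2% to 57.6%). *Sik1*, which rose, has a GC content of 55.0%. After removal, library by library, of the dependence of levels on GC content and length, *Sik1* was called, *Camk2b* had a log2 fold change of 0.16 (adjusted p = 0.125) and *Camk2d* one of 0.01 (adjusted p = 0.942). Without WT CS replicate 2, the library with the highest *Camk2d* and the lowest *Camk2b*, both genes kept an adjusted p under 0.05 but fell below the fold threshold, at -0.24 and 0.26. With CPM as deposited, where the median of all genes was 0.30 instead of 0.04, 4 of the 8 genes rose (*Sik1*, *Camk2a*, *Camk2b* and *Mapk3*) and none fell, since *Camk2d* was at -0.06, and *Sik2*, *Sik3* and *Camk2g* changed sign. *Mapk3* was called in that 1 of 13 settings, and over the 13 its log2 fold change went from -0.29 to 0.42.

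**Figure D3:**
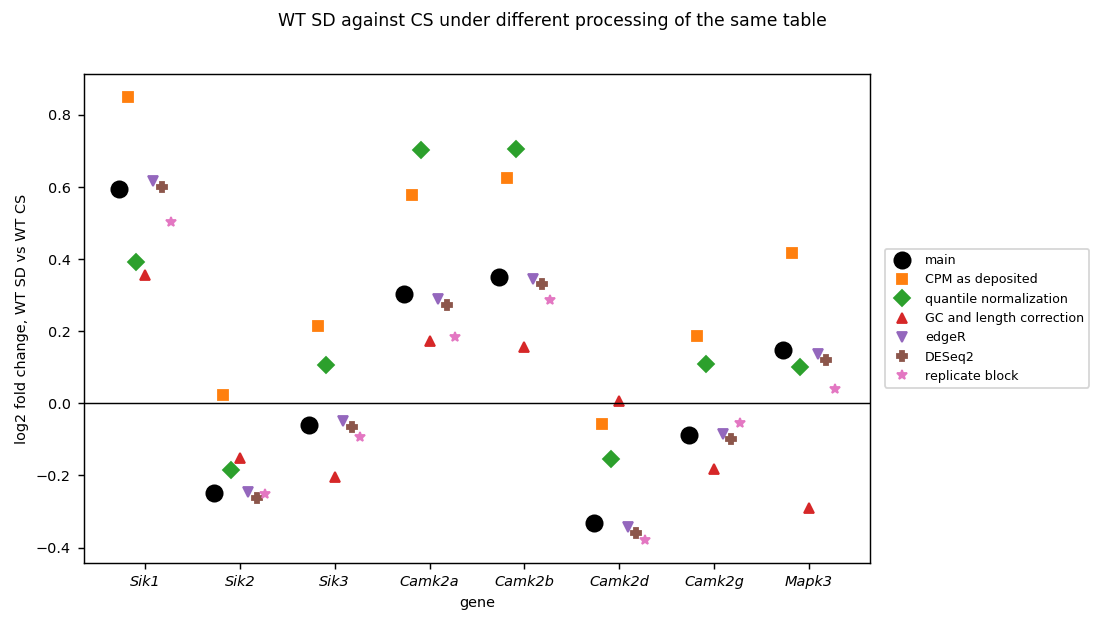
Log2 fold change of each gene (x axis) in WT SD against WT CS (y axis) under the main processing (black circles) and 6 alternatives (coloured symbols). *Sik1* and *Camk2b* are above 0 under each of the settings plotted, and *Camk2d* reaches 0.01 after the GC and length correction.

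The other genes of these pathways were taken from lists, and each is described by its counts beside the 24.6% of all genes called higher and the 20.5% called lower. Their calls are from the main processing only, and how they depend on the GC content of the transcripts was not tested. With the GC and length correction the genes called in this comparison fell from 5826 of 12913 to 2699 of 12439. Of 8 other CaM kinases, 5 rose and 2 fell, with a median log2 fold change of 0.52 against 0.04 for all genes. *Camkk1*, an upstream kinase of CaMKI and CaMKIV, rose by 0.78 (SE 0.18, adjusted p = 0.00447) with no overlap between the groups. *Camk4*, a nuclear kinase of CREB, fell by 0.77 (SE 0.13, adjusted p = 0.00117). Of 7 calmodulin and CaMKII binding proteins 3 rose and none fell: *Calm3* (calmodulin) by 0.45, *Nrgn* (neurogranin, which holds calmodulin at the synapse) by 0.69 and *Camk2n2* (an endogenous CaMKII inhibitor) by 0.68. Of 10 phosphatases that act on CaMKII or belong to calcineurin, 2 rose and 4 fell, among the latter the 3 calcineurin catalytic subunit genes *Ppp3ca* (-0.51), *Ppp3cb* (-0.43) and *Ppp3cc* (-0.44).

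Around the SIKs, 1 of 11 regulators rose (*Stk11*, encoding LKB1, 0.51) and 1 fell (*Cab39l*, a scaffold of the LKB1 complex, -0.39). Of 13 tested SIK substrates and 14-3-3 proteins 3 rose and 1 fell. *Crtc1*, a CREB coactivator, rose by 0.49, the class IIa deacetylase gene *Hdac5* by 0.95 and the 14-3-3 gene *Ywhag* by 0.59, while the deacetylase gene *Hdac9* fell by 0.84 (SE 0.13, adjusted p = 0.000724). Of 11 other AMPK-related kinases 2 rose and 1 fell. Of 14 CREB-regulated activity genes 8 rose and 1 fell, with a median of 0.60. *Arc* rose by 1.18 and *Fosb* by 1.06, both with no overlap between the groups, and *Nr4a2* fell by 0.68.

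In the ERK pathway, 2 of 8 cascade kinases rose (*Map2k1*, encoding MEK1, 0.41, and *Map2k2*, encoding MEK2, 0.80) and *Braf*, encoding a Raf kinase upstream of them, fell (-0.52). Of 12 genes for Ras and its exchange and GTPase-activating factors, 3 rose and 6 fell, among them *Hras* (0.49) and the exchange factor gene *Sos1* (-0.52). Of 8 ERK effectors and phosphatases 3 rose and 2 fell, with *Mknk2* at 0.86 and *Rps6ka3* (encoding RSK2) at -0.78.

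Cell type markers moved in the same comparison, where 24.6% of all genes were called higher and 20.5% lower. None of 8 excitatory neuron markers rose and 2 fell (summed level 1134 to 1319 in CS, 1010 to 1204 in SD), 2 of 7 inhibitory neuron markers and 3 of 6 astrocyte markers rose and none fell, and 6 of 7 blood and meningeal markers rose, from a summed level of 55.5 to 116 in CS to 123 to 315 in SD. Of oligodendrocyte and microglia markers, 1 of 6 rose and 1 of 6 fell in each, and of endothelial and mural markers 2 of 6 rose and 1 fell. Their part in the values of the 8 kinases was not tested.

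Recovery sleep was compared with CS and with SD. *Camk2b* was called in WT RS, at 500 to 627 CPM (median 542), a log2 fold change of 0.33 against CS (SE 0.11, adjusted p = 0.0457), with 17.5% of 12752 genes called. That background share rests on single libraries, since the count of 2232 genes fell to 0 without CS replicate 3 or RS replicate 3, 5, 6 or 12, to 3 without RS replicate 4 and to 98 and 223 without CS replicates 2 and 1. With the GC and length correction, edgeR, array weights or no filter the call on *Camk2b* was lost, and it held in 5 of 13 fits with a library left out, at log2 fold changes of 0.24 to 0.38. *Sik1* lay between the other groups in RS, at 7.29 to 13.1 CPM (median 9.65). Its log2 fold change was 0.31 (SE 0.14, adjusted p = 0.0982) against CS and -0.28 (SE 0.11, adjusted p = 0.815) against SD. *Camk2d* was at -0.26 (adjusted p = 0.102), *Sik2* at -0.25 (adjusted p = 0.1005), *Camk2a* at 0.23 (adjusted p = 0.170) and *Mapk3* at 0.21 (adjusted p = 0.164) against CS. Between RS and SD none of the 8 genes passed the test, where 0.0232% of 12921 genes did (683 at an unadjusted p under 0.05 in limma, of the 8 genes only *Sik1*). Of the cell type markers, 2 of 8 of excitatory neurons were lower in RS than in CS, and 2 of 7 of inhibitory neurons, 1 of 6 of astrocytes and 2 of 7 of blood and meninges were higher, and their part in the values of the 8 kinases was not tested. SD and RS were compared with the same CS libraries, so their values are not independent.

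The same deprivation was tested in *Mef2c* f/f and in cKO mice. None of the 8 genes passed the limma test in either, with 0.0403% of 12410 genes called in *Mef2c* f/f (2111 at an unadjusted p under 0.05) and 0.0234% of 12810 in cKO (391 at an unadjusted p under 0.05). The share in *Mef2c* f/f mice depended on 1 library and on the tool, since 590 genes were called without CS replicate 1, 467 with DESeq2 and 1750 with array weights, against 5. *Sik1* was 6.29, 7.34, 4.43 and 3.74 CPM in the 4 *Mef2c* f/f CS libraries and 9.98, 9.42 and 7.64 in the 3 SD libraries. All SD libraries were above all CS libraries, as groups without overlap were for 17.4% of all genes. The log2 fold change was 0.71 (SE 0.21, adjusted p = 0.162 in limma), and DESeq2 on the recovered reads called it (adjusted p = 0.0391), as did limma with array weights, at 0.43 (adjusted p = 0.0346). In cKO mice *Sik1* was 13.3, 7.27 and 8.57 CPM in CS and 13.2, 16.6 and 10.1 in SD, a log2 fold change of 0.45 (SE 0.25, adjusted p = 0.998) with overlapping groups, which array weights moved to 0.72 (adjusted p = 0.0444).

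*Sik3* was 152, 163, 195 and 178 CPM in *Mef2c* f/f CS and 141, 148 and 134 in SD, without overlap, with a log2 fold change of -0.28 (SE 0.09, adjusted p = 0.195). In cKO mice *Sik3* was 143, 127 and 151 CPM in CS and 138, 140 and 152 in SD, a log2 fold change of 0.03 (SE 0.09). *Mapk3* had log2 fold changes of -0.26 (SE 0.11, adjusted p = 0.277) in *Mef2c* f/f and -0.32 (SE 0.19, adjusted p = 0.998) in cKO mice. The 4 CaMKII genes lay between -0.14 and 0.18 in both genotypes. None of the cell type markers was called in *Mef2c* f/f mice, but summed levels were higher in SD without overlap for markers of oligodendrocytes (1839 to 2203 in CS, 2440 to 2808 in SD), excitatory neurons (1059 to 1189 and 1216 to 1304) and astrocytes (912 to 967 and 983 to 1000.5), and lower for blood and meningeal markers (130 to 184 and 72.9 to 121). Their part in the values of the 8 kinases was not tested.

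When the 13 libraries of both genotypes were fitted together with genotype as a term, a fit chosen after the data had been seen, *Sik1* had a log2 fold change of 0.59 (SE 0.17, adjusted p = 0.349 in limma). None of the 8 genes and 0% of 12860 genes passed in that fit. The response to SD was not found to differ between cKO and *Mef2c* f/f mice for any of the 8 genes, in a test of the interaction that called 0.00778% of 12860 genes. The difference was -0.26 (SE 0.35) for *Sik1* and 0.32 (SE 0.13, adjusted p = 0.631) for *Sik3*, the gene with the lowest p of the 8 in limma.

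**Figure D4:**
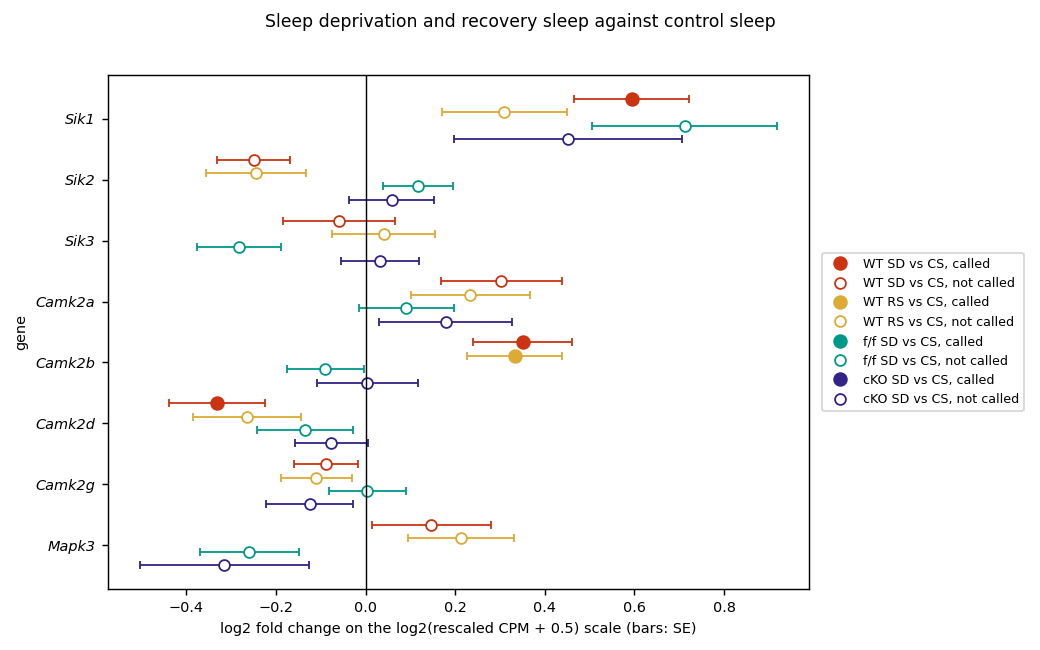
Log2 fold changes (x axis, bars are SE) of the 8 genes (y axis) for WT SD against CS, WT RS against CS, *Mef2c* f/f SD against CS and cKO SD against CS (colours). Filled symbols passed the test. *Sik1* is above 0 in all 4 comparisons, between 0.31 and 0.71, of which the WT SD one passed.

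The difference in response between *Mef2c* f/f and WT mice was close to the threshold for *Sik2*, at 0.37 (SE 0.12, adjusted p = 0.0498), where 15.1% of 13106 genes passed. It passed in 5 of 13 processing settings and fell to 0.11 (adjusted p = 0.422) with CPM as deposited. *Sik2* in *Mef2c* f/f mice was 68.3, 68.2, 73.9 and 67.5 CPM in CS and 81.9, 74.8 and 69.8 in SD, a log2 fold change of 0.12 (SE 0.08, adjusted p = 0.460), against -0.25 in WT. The difference for *Camk2b* was -0.44 (SE 0.17, adjusted p = 0.0673) and for *Mapk3* -0.41 (SE 0.21, adjusted p = 0.141). The WT libraries were totalled over more genes than the table lists (their listed genes sum to 925580 to 985958 CPM, those of the other libraries to 1000000), so genotype and the preparation of the table cannot be told apart here. The difference for *Sik2* passed in 5 of 20 fits with a library left out (0.31 to 0.42), and the count of genes passing fell from 1983 to 191 with the GC and length correction and to 23 without *Mef2c* f/f SD replicate 3.

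The comparison of cKO with *Mef2c* f/f mice asks how these transcripts differ between the genotypes. The cKO mice also carry the Cre transgene and no group with Cre alone was taken, so it cannot be told apart from the loss of MEF2C. The scaling factors were 0.984 to 1.07 in *Mef2c* f/f CS, 1.03 to 1.05 in *Mef2c* f/f SD, 1.09 to 1.14 in cKO CS and 1.099 to 1.101 in cKO SD. The genotypes thus differ in library composition as well. *Camk2g* was lower in cKO mice in both sleep conditions, *Mapk3* was higher in CS and *Camk2d* was higher in SD. In CS 2 of the 8 genes were called, where 7.67% of 12681 genes were (3.17% higher and 4.5% lower), and in SD 2 of 8, where 15.1% of 12774 were (9.1% higher and 5.99% lower). With a library left out the number of genes called in CS went from 973 to between 171 (without cKO replicate 7) and 875, with 175 without *Mef2c* f/f replicate 2, 543 and 544 without *Mef2c* f/f replicate 3 and cKO replicate 5, and 611 without cKO replicate 8. In SD it went from 1927 to between 822 (without *Mef2c* f/f replicate 1) and 2447, with 948 without *Mef2c* f/f replicate 3.

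*Camk2g* was 212, 244, 250 and 260 CPM in *Mef2c* f/f CS and 171, 195 and 186 in cKO CS. All cKO libraries lay below all *Mef2c* f/f libraries, and groups without overlap, in either direction, were seen for 26.9% of all genes in CS. The log2 fold change was -0.39 (SE 0.10, adjusted p = 0.0444). In SD *Camk2g* was 230, 248 and 247 CPM in *Mef2c* f/f and 183, 151 and 174 in cKO mice, again without overlap, as for 40.3% of all genes. The log2 fold change in SD was -0.52 (SE 0.08, adjusted p = 0.00594). The SD call held under all 12 processing settings, with values from -0.53 to -0.39, and with any of the 6 libraries left out. The CS call held under 9 of 12 settings and in 1 of 7 fits with a library left out (that without *Mef2c* f/f replicate 1), where the log2 fold change went from -0.45 to -0.34. Without cKO CS replicate 8, the library with high astrocyte and microglia markers, it was -0.40 (adjusted p = 0.0822).

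*Camk2a* was 865, 1021, 967 and 1099 CPM in *Mef2c* f/f CS and 731, 811 and 698 in cKO CS, and 972, 1139 and 1041 in *Mef2c* f/f SD against 908, 682 and 969 in cKO SD. The groups did not overlap in either condition, as was so for 26.9% of genes in CS and 40.3% in SD. The log2 fold changes were -0.40 (SE 0.12, adjusted p = 0.0657) and -0.31 (SE 0.13, adjusted p = 0.141) in limma. The CS difference was called in 2 of 12 processing settings, which spanned -0.42 to -0.17, and in 0 of 7 fits with a library left out. The 2 settings were DESeq2, at -0.42 (adjusted p = 0.00238), and array weights, at -0.33 (adjusted p = 0.00153). They called 2095 and 3402 of all 12681 genes, against 973 in the main processing. *Camk2d* went the other way. It was 127, 130, 137 and 104 CPM in *Mef2c* f/f CS and 150, 137 and 163 in cKO CS, and 121, 101 and 116 against 142, 144 and 139 in SD. Its log2 fold changes were 0.28 (SE 0.11, adjusted p = 0.151) in CS and 0.33 (SE 0.08, adjusted p = 0.0232) in SD, with no overlap between the genotypes in either condition. In CS the groups were only just apart, at 136.9 CPM in the highest *Mef2c* f/f library and 137.1 in the lowest cKO library. The SD call was lost without cKO replicate 5 or *Mef2c* f/f replicate 2 or 3, at adjusted p of 0.0526 to 0.0666, in the fit over all 7 groups (adjusted p = 0.190) and, by its size of 0.27, with array weights. *Camk2b* differed by 0.02 (SE 0.11) in CS and 0.11 (SE 0.09) in SD.

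*Mapk3* was 27.7, 31.1, 24.9 and 34.8 CPM in *Mef2c* f/f CS and 41.4, 41.4 and 39.6 in cKO CS. The cKO values lay close together and above all *Mef2c* f/f values, with a log2 fold change of 0.47 (SE 0.12, adjusted p = 0.0458). Leaving out any of the 7 libraries but *Mef2c* f/f replicate 4 ended this call, at log2 fold changes of 0.39 to 0.54 over all 7, and it held under 9 of 12 processing settings. In SD *Mapk3* was 25.0, 24.7 and 23.8 CPM in *Mef2c* f/f mice and 35.2, 23.8 and 41.6 in cKO mice. Its cKO values overlapped those of *Mef2c* f/f mice in 1 library, replicate 6, and the log2 fold change was 0.41 (SE 0.17, adjusted p = 0.138). Without that library it was 0.63 and was called (adjusted p = 0.00072), as it was with array weights, at 0.50 (adjusted p = 0.00106).

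*Sik1* was not called in either condition by limma, with log2 fold changes of 0.78 (SE 0.26, adjusted p = 0.0926) in CS and 0.52 (SE 0.18, adjusted p = 0.0791) in SD. The groups overlapped in CS (7.27 CPM in the lowest cKO and 7.34 in the highest *Mef2c* f/f library) but not in SD, as for 40.3% of genes. DESeq2 called it in both, at 0.81 (adjusted p = 0.0379) in CS and 0.54 (adjusted p = 0.0297) in SD. It called 2095 of 12681 and 2291 of 12774 genes. *Sik1* was also called in CS in the limma fit over all 7 groups (adjusted p = 0.0142). In SD it was called with array weights, at 0.42 (adjusted p = 0.0105), and without cKO SD replicate 7, at 0.69 (adjusted p = 0.0303). The CS call was made in 2 of 11 settings (0.16 to 0.88) and 0 of 7 fits with a library left out. The SD call was made in 2 of 12 settings (0.41 to 0.59) and 1 of 6 such fits. *Sik2* differed by -0.10 (SE 0.10) in CS and -0.16 (SE 0.07) in SD. *Sik3* was at -0.29 (SE 0.11, adjusted p = 0.123) in CS, without overlap and called with array weights at -0.37 (adjusted p = 0.000634), and at 0.03 (SE 0.07) in SD.

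A fit over the 13 libraries with sleep condition as a term, chosen after the data had been seen, gave 1 genotype difference per gene. It called 5 of the 8 genes, where 19.8% of 12860 genes were called. The fit was run with the main processing only, so how its calls depend on the other settings was not tested. *Sik1* (0.66, SE 0.17, adjusted p = 0.0118), *Mapk3* (0.44, SE 0.11, adjusted p = 0.00821) and *Camk2d* (0.30, SE 0.07, adjusted p = 0.00581) were higher in cKO mice, and *Camk2a* (-0.36, SE 0.09, adjusted p = 0.00832) and *Camk2g* (-0.45, SE 0.07, adjusted p = 0.000278) were lower. With each of the 13 libraries left out in turn, *Sik1*, *Mapk3*, *Camk2a* and *Camk2g* were called in 13 of 13 fits and *Camk2d* in 8, its log2 fold change lying between 0.26 and 0.34, near the fold threshold. Without cKO CS replicate 8, *Camk2d* was at 0.28 (adjusted p = 0.0146).

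**Figure D5:**
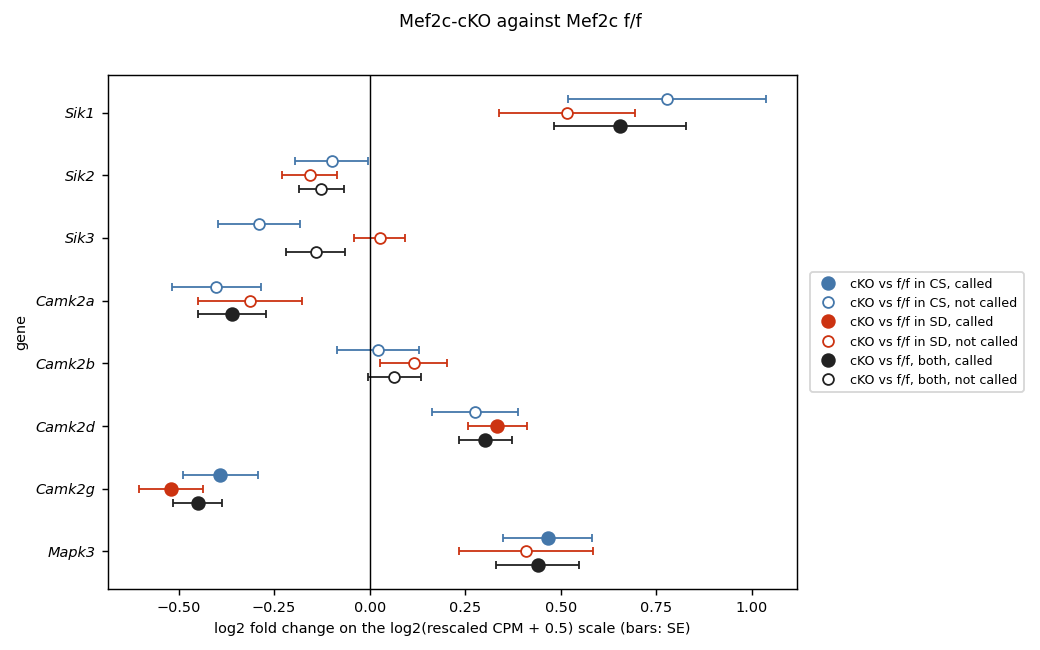
Log2 fold changes (x axis, bars are SE) of the 8 genes (y axis) for cKO against *Mef2c* f/f mice in CS, in SD, and over both conditions with sleep condition as a term (colours). Filled symbols passed the test. *Camk2g* lies between -0.52 and -0.39 and passed in all 3 fits.

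Calls on the other pathway genes are from the main processing only. Of all genes, 9.1% were called higher and 5.99% lower in cKO mice in SD, and 3.17% and 4.5% in CS. Of the pathway genes in SD, 2 of 8 other CaM kinases were lower in cKO mice, *Camk4* by 0.64 and *Camkk2* by 0.68, and none was higher. Of 7 calmodulin and CaMKII binding proteins 3 were lower, the CaMKII inhibitor genes *Camk2n1* (-0.80, SE 0.10, adjusted p = 0.0025) and *Camk2n2* (-0.42) and *Nrgn* (-0.66), and *Pcp4*, encoding another calmodulin regulator, was higher (0.61). Of 8 ERK cascade kinases 1 was higher (*Map2k1*, 0.32) and 2 lower (*Braf*, -0.30, and the scaffold gene *Ksr2*, -0.42), and of 12 Ras factors 2 were lower, among them the calcium-activated exchange factor gene *Rasgrf2* (-0.77). Of 13 SIK substrates and 14-3-3 proteins 1 was lower (*Hdac7*, -0.60), of 11 AMPK-related kinases 3 were lower, and none of 11 SIK regulators, 10 phosphatases or 14 CREB-regulated activity genes was called. In CS, *Hdac7* (-0.87), *Ksr2* (-0.65), *Rasgrf2* (-0.60) and the CaM kinase gene *Camk1d* (-0.52) were lower, 3 of 11 AMPK-related kinases were lower, and no gene of the SIK regulators, calmodulin binding proteins, phosphatases, ERK effectors or CREB-regulated genes was called.

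Cell type markers also differed between the genotypes, with calls from the main processing only. Beside them, 9.1% of all genes were called higher and 5.99% lower in SD, and 3.17% and 4.5% in CS. In SD 4 of 8 excitatory neuron markers were lower in cKO mice and none higher, with a summed level of 1216 to 1304 in *Mef2c* f/f and 1021 to 1099 in cKO mice. Of 7 inhibitory neuron markers 3 were higher and 2 lower (540 to 616 against 712 to 830), of 6 microglia markers 4 were higher (149 to 155 against 186 to 204), and of 6 astrocyte markers 2 were higher (983 to 1000.5 against 1169 to 1295). Of 6 oligodendrocyte markers 1 was lower, of 6 endothelial and mural markers 1 was higher, and none of 7 blood and meningeal markers was called. In CS 1 of 8 excitatory neuron markers was lower (summed level 1059 to 1189 in *Mef2c* f/f and 867 to 1301 in cKO mice), and 1 inhibitory neuron, 1 astrocyte and 2 oligodendrocyte markers were higher. Of the endothelial and mural markers 1 was lower in CS, no microglia marker was called, and of 7 blood and meningeal markers 2 were higher and 1 lower, with a median log2 fold change of -1.51 and a summed level of 130 to 184 in *Mef2c* f/f and 44.1 to 132 in cKO mice. Their part in the differences of the 8 kinases was not tested.

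Across the 7 groups, the mean of *Sik1* went from 5.45 CPM in *Mef2c* f/f CS to 13.3 in cKO SD, that of *Mapk3* from 24.5 in *Mef2c* f/f SD to 40.8 in cKO CS, that of *Camk2d* from 113 in *Mef2c* f/f SD to 188 in WT CS, and that of *Camk2g* from 169 in cKO SD to about 242 in both *Mef2c* f/f groups. Most neighbours in these orders differed by less than the sum of their SDs. The exceptions among all 8 genes were *Camk2d* in cKO SD (142) against *Mef2c* f/f CS (124) and *Mapk3* in *Mef2c* f/f CS (29.6) against *Mef2c* f/f SD (24.5). For *Mapk3* the libraries of those groups overlapped all the same, and the difference was not called (adjusted p = 0.277 in limma).

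The genes whose pattern was most like each kinase were found over the 20 WT libraries, by Pearson's r of log2 levels among 12155 genes, as a description. They were *Grasp* (r = 0.91) and *Apeh* (0.90) for *Sik1*, *Rgs20* (0.95) and *Shroom4* (0.93) for *Sik2*, *Ppargc1b* (0.93) and an unnamed clone gene, RP23-37G19.2 (0.94), for *Sik3*. For the CaMKII genes they were *Stx4a* (0.91) and *Casc3* (0.90) for *Camk2a*, *Trim46* and *Tmem94* (both 0.96) for *Camk2b*, *Xpr1* and *Lrrn1* (both 0.93) for *Camk2d*, and *Rassf3* (0.90) and *Ptpn3* (0.85) for *Camk2g*. For *Mapk3* they were *Pigt* (0.94) and *Elmod3* (0.90). These libraries share the differences in composition given above, and the r of the level with the log2 scaling factor of the library was 0.86 for *Sik1*, 0.85 for *Camk2b*, -0.84 for *Sik2* and -0.80 for *Camk2d*.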

How the data were processed

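Polyadenylated RNA of the frontal cortex was sequenced by the authors, who checked and trimmed the reads, aligned them to mm10 with STAR, counted unique reads per gene with HTSeq and deposited CPM made with edgeR. The annotation release and the strand setting are not given in the sources used here. Dividing each library by its smallest value above 0 gave whole reads within 0.01 for 711645 of 711645 values.

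Each library's CPM were rescaled by a median-of-ratios factor, computed on the 11570 genes that reach CPM 1 in all 33 libraries, and 0.5 was added before log2, so that changes of low genes are understated. Each comparison was fitted over its own groups with limma 3.58.1 in R 4.3.3 (lmFit, eBayes with a trend), on genes that reach CPM 1 in every replicate of some compared group, with Benjamini-Hochberg adjustment over all of them. A call needed an adjusted p up to 0.05 and a log2 change of 0.3 or more in size, an interaction the adjusted p alone. The procedure was tested on simulated data. Nothing says that libraries of a group came from separate litters or extractions, so p-values measure the spread between these libraries.

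Other settings tried were a pseudocount of 0.1 or 1, unscaled CPM, quantile normalization, dropping the filter or raising it to CPM 5 in every library, correcting for GC content and length (splines with 5 and 4 degrees of freedom, GENCODE M21, 19487 symbols matched), edgeR 4.0.16 (quasi-likelihood) and DESeq2 1.42.0 on recovered reads, one fit for all groups, array weights, a block on the replicate number and leaving out each library. The 2 fits over 13 libraries were added after the data had been seen and were run with the main processing only, with each library left out in turn.

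The genes named are the 8 kinases, *Mef2c*, the genes of 17 lists of pathway members and cell type markers, and for each kinase the 2 genes with the highest r over the WT libraries. Genes and lists were chosen with earlier results of these data known. A listed gene without a value in the text is not reported here.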

Additional observations from a re-analysis of the deposited data

Results flagged for a closer look

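*Sik2* in *Mef2c* f/f CS replicate 3 stood apart from its group, at 73.9 CPM against 67.5 to 68.3 in the other 3 libraries. It was the 1 outlier among 32 groups of 4 or more libraries examined, and chance alone flags about 1 in 20 groups. The response of *Sik2* to SD differed between *Mef2c* f/f and WT mice, by 0.37 on the log2 scale (limma interaction, adjusted p = 0.0498), close to the threshold. This passed in 5 of 13 processing settings, with differences of 0.11 to 0.43. The log2 fold change was 0.12 in *Mef2c* f/f and -0.25 in WT mice, and neither was called on its own.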

How the results depend on the processing

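Over all comparisons of the 8 genes, 757 values under other settings kept their direction and their side of the threshold, 27 lost a call, 27 gained one and 46 changed sign without a call. With 1 library left out these counts were 709, 40, 9 and 34. *Camk2d* in WT SD against CS went from -0.33 to 0.0068 with the GC and length correction, the 1 reversal of a called value. The number of the 8 genes called in WT SD against CS, 3, became 1 with that correction, 2 with array weights (without *Camk2d*) or with CPM of at least 5 in every library (where *Sik1* was not tested), 4 with CPM as deposited or in the fit over all 7 groups (each with *Camk2a*), and stayed at 3 with quantile normalization, where *Camk2a* replaced *Camk2d*. It went from 1 (without CS replicate 2) to 4 with a library left out. In WT RS against CS, 1 became 2 with quantile normalization, 0 with no filter, the GC and length correction, edgeR or array weights, and 0 to 3 with a library left out. In *Mef2c* f/f SD against CS, 0 became 1 with DESeq2 and 2 with array weights, and in cKO SD against CS 0 became 1 with array weights. In cKO against *Mef2c* f/f CS, 2 became 1 with CPM as deposited, 0 with quantile normalization or no filter, 4 with DESeq2 or array weights, stayed at 2 in the fit over all 7 groups with *Sik1* in place of *Mapk3*, and became 5 in the fit over both sleep conditions and 0 to 1 with a library left out. In cKO against *Mef2c* f/f SD, 2 became 1 in the fit over all 7 groups, 3 with DESeq2 (with *Sik1*) or array weights (with *Sik1* and *Mapk3*, without *Camk2d*), and 1 to 3 with a library left out. For the difference between *Mef2c* f/f and WT responses, 1 became 0 with a pseudocount of 0.1, no filter, the GC and length correction or edgeR, stayed at 1 with *Camk2b* in place of *Sik2* with quantile normalization or the fit over all 7 groups, and became 2 with CPM as deposited (*Camk2b* and *Mapk3*, without *Sik2*), 3 with array weights and 0 to 2 with a library left out. The causes were not tested.

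Replicate numbers of the labels were not taken to pair libraries, since the correlation of same-numbered deviations went from -0.30 to 0.65 in WT SD against CS. It was above 0 for all 6 numbers in WT RS against CS (0.049 to 0.66), all 3 in *Mef2c* f/f mice (0.054 to 0.29) and both in cKO mice, but not above 0.1 for every number in any comparison. With the replicate block, 0 of the 8 genes were called in WT SD against CS (287 of all genes, against 5826), 2 in WT RS against CS (4279 of all genes, against 2232, with *Sik1* at 0.33, adjusted p = 0.0384) and 0 for the difference between *Mef2c* f/f and WT responses. No paired analysis was possible for cKO against *Mef2c* f/f, which share no numbers. With CPM of at least 5 in every library, *Sik1* was left untested in several comparisons. The number of libraries, 3 or 4 a group in the *Mef2c* f/f and cKO mice, limits the precision of those comparisons.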
